A study of Mus musculus with 2 samples.

Results

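Genes for nitric oxide synthesis and for the NADPH oxidases were examined in colonies/organoids grown from mouse mammary basal cells. The 10 members were chosen by name and were Nos2, Nos3, Cyba, Cybb, Nox1, Nox4, Duox1, Duox2, Noxa1 and Noxo1, out of 49492 genes in the deposited table of read counts. Basal cells were sorted by FACS from the mammary glands of adult female wild-type mice and cultured in 3D matrix gel for 10 days in a medium that held EGF and ITS for both groups. One group received recombinant mouse TNF-α at 10 ng/mL and the other was the control without it. RNA-seq gave 1 library per group, so no difference has a replicate check, and the number of animals behind each library is not given in the sources used here.

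Nitric oxide is made from arginine by the nitric oxide synthases. The inducible enzyme, encoded by Nos2, is controlled mainly through transcription and is known for its induction by inflammatory cytokines, whereas the endothelial enzyme, encoded by Nos3, is controlled largely by calcium and calmodulin. The NADPH oxidases pass electrons from NADPH across a membrane to oxygen and make superoxide or hydrogen peroxide. Nox1, Cybb (also called Nox2) and Nox4 need the small membrane subunit Cyba, Nox1 also uses the organizer Noxo1 and the activator Noxa1, and the dual oxidases Duox1 and Duox2 need the maturation factors Duoxa1 and Duoxa2 to leave the endoplasmic reticulum. Some epithelia use these enzymes at their surfaces, and phagocytes use Cybb to kill microbes.

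To ask how the members answered TNF-α, counts were scaled to library size by the TMM method and given as CPM, the counts per 1e+06 counts of the scaled library. A gene was compared when its counts summed to at least 10 over both libraries. It was called higher or lower when the log2 ratio of CPM, computed with a prior count of 2, passed a fold of 2 and its reads also differed in an exact binomial test (two-sided, Benjamini-Hochberg adjusted p under 0.05 over all 20771 genes compared). The read test sets 2 libraries against each other and says nothing of the spread within a condition. Of the 9 members compared, Nos2, Cyba, Nox1 and Cybb rose with TNF-α and Duox1 fell, while Nos3, Nox4, Noxa1 and Noxo1 did not pass the thresholds. Over all genes compared, 6.89% were called higher and 5.53% lower (12.4% in all). Among the genes with 10 to 99 summed counts, where Nos2, Nox1 and Cybb lie, 12.6% were called higher and 10.7% lower. Among those with at least 100, where Cyba and Duox1 lie, 4.77% were called higher and 3.59% lower. The median log2 ratio of the 9 members was 0.52, and that of all genes compared was 0.0038. The median of the members is the ratio of Noxo1, which cannot be assigned to that gene alone. Exons of Tbl3 on the opposite strand cover 70.4% of the exon length of Noxo1. When edgeR's exact test assumed a coefficient of variation of 0.4 between cultures, 0 of these 5 calls remained. Duox2 had 0 counts in the control and 2 with TNF-α, which is at the floor of 3 counts in both libraries, so it was not compared.

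Promoter sequences of the members that were called are shown first, because the data are read out at these genes. RefSeq windows on GRCm38.p6, from 250 bases before to 50 bases after the annotated start, were found for 8 of the 10 members, all except Nos2 and Nos3, and for both Duoxa genes. Both strands were searched for the interferon-stimulated response element (ISRE, here GAAA repeated after 2 bases of any kind), the gamma-activated site (TTCNNNGAA), the NF-κB consensus, AP-1 (TGANTCA), the cyclic AMP response element (TGACGTCA), the core of the HIF site (ACGTG), the GC box (GGGCGG) and the TATA box (TATAAA). The cyclic AMP and HIF letters overlap in part. Matches are descriptions of letters and not evidence of binding. The windows of Cybb, Nox1 and Cyba, which rose, and of Duox1 and its neighbour Duoxa1, which both fell, are printed 5′ to 3′ on the strand of the gene, with the matches in capitals.
Cybb, chrX:9469275-9469574, minus strand: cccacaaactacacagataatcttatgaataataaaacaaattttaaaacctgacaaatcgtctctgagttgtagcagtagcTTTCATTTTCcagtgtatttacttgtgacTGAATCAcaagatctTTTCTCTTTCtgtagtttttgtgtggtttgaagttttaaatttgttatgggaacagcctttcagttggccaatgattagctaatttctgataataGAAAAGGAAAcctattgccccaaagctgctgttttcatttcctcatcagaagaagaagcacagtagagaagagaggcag
Nox1, chrX:134111805-134112104, minus strand: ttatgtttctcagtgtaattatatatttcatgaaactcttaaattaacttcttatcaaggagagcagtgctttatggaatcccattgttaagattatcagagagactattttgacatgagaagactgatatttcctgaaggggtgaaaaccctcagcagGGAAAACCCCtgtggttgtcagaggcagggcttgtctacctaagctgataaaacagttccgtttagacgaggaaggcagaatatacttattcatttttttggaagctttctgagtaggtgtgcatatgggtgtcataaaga
Cyba, chr8:122432891-122433190, minus strand: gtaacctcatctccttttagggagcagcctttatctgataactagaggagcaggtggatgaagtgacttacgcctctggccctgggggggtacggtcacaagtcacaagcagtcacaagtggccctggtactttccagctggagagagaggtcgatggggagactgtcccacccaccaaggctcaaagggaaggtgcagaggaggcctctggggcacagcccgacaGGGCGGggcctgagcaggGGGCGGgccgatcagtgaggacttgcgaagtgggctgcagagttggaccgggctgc
Duox1, chr2:122315422-122315721, plus strand: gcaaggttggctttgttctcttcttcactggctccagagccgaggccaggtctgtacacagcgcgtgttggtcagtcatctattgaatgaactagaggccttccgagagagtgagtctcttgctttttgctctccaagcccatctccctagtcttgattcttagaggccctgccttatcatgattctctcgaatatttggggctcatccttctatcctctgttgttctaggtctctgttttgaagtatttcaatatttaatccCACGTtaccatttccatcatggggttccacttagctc
Duoxa1, chr2:122313681-122313980, minus strand: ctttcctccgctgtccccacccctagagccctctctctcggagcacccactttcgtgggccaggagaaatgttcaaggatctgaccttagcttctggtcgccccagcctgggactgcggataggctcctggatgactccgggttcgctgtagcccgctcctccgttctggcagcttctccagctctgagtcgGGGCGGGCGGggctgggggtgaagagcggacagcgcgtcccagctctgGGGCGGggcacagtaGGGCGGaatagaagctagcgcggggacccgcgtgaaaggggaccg

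The Cybb window held 3 ISRE matches, which began 168, 124 and 29 bases before the start, and 1 AP-1 match. At least 1 ISRE match was present in 3.44% of 32851 windows of the same length, and 3 or more in 0.0152% (5 windows). The cut of 3 was taken from the Cybb window itself and applied to no other motif, so that share is a description and not a test. The Nox1 window held 1 NF-κB match beginning 91 bases before the start, and 4.51% of all windows held one. The Cyba window held 2 GC boxes and the Duoxa1 window 4, of a kind present in 35.7% of all windows. The Duox1 window held 1 match to the core of the HIF site, as did 19.6% of all windows. Among the members that were not called, the Noxa1 window held an NF-κB match, the Noxo1 window 3 GC boxes, and the Nox4 window 1 GC box and a gamma-activated site, which was present in 8.30% of all windows. The RefSeq starts of Cyba and Duox1 lie 10 and 0 bases from the first base of the deposited gene, but those of Cybb and Nox1 lie 18447 and 110102 bases inside the deposited span.

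**Figure D1:**
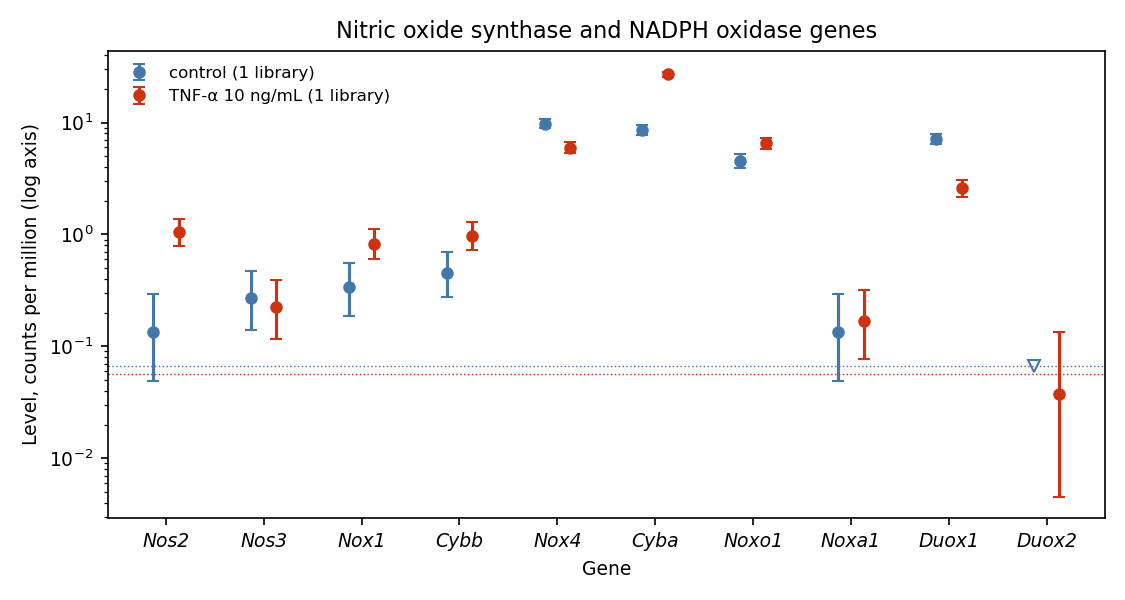
Levels of the 10 members in the control and TNF-α libraries, in CPM on a log axis. Points are single libraries, bars are exact 95% Poisson intervals for counting error, dotted lines mark 3 counts in each library, and the open triangle is a count of 0. Cyba, Nos2, Nox1, Cybb and Noxo1 stand higher with TNF-α beyond these intervals, and Duox1 and Nox4 stand lower. Noxo1 and Nox4 were not called, and the Noxo1 counts cannot be assigned to that gene alone.

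Among the nitric oxide synthases, Nos2 rose and Nos3 did not pass the thresholds. Nos2 (chromosome 11, 78920787 to 78960254) had 6 counts without TNF-α and 56 with it, or 0.135 CPM (95% interval 0.0494 to 0.293) and 1.05 CPM. The intervals for counting error did not overlap, and the log2 ratio was 2.64 (95% interval 1.75 to 4.47), a fold of 6.21 on the scale with the prior count. This was the largest ratio of the 9 members and lay at percentile 98.7 of all genes compared. Even so, Nos2 stayed a rarely counted gene, at 0.0861 TPM (transcript abundance per 1e+06 transcripts, computed here from counts and exon length) in the control and 0.650 with TNF-α. Nos3 (chromosome 5, 24364810 to 24384474) had 12 counts in each library, and its log2 ratio of -0.22 had a 95% interval from -1.54 to 1.02, so a change of 2-fold in either direction was not detectable at this depth. Its counts are also uncertain, because 25.2% of its exon length overlaps exons of Gm15587 and 7.12% overlaps exons of Atg9b, both on the opposite strand. The neuronal synthase gene Nos1 had 12 and 10 counts.

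**Figure D2:**
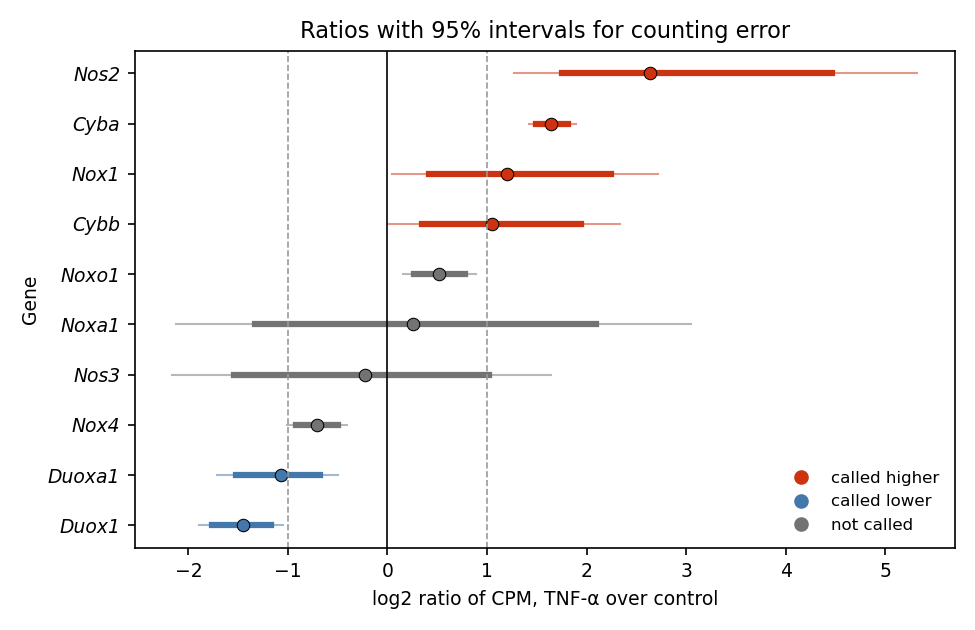
Log2 ratio of CPM, TNF-α over control, for the 9 members compared and for Duoxa1. Thick bars are 95% Clopper-Pearson intervals from the counts as deposited, thin bars the same from counts divided by 2, and dashed lines mark a fold of 2. Nos2 has the highest ratio at 2.64 and Duox1 the lowest at -1.45.

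The shared subunit gene Cyba was the best counted of the members and rose. Cyba (chromosome 8, 122424776 to 122432930) had 381 counts in the control and 1433 with TNF-α, or 8.55 and 26.9 CPM. Its log2 ratio was 1.65 (95% interval 1.49 to 1.82), a fold of 3.13, at percentile 96.1 of the genes compared. The interval lay wholly above a fold of 2. Its level per length went from 23.2 to 70.7 TPM, above 88.9% and 95.6% of all genes in the table. No exon of another gene in the table overlapped those of Cyba.

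The catalytic subunits that pair with Cyba moved in both directions. Cybb (chromosome X, 9435252 to 9487771), the electron-transferring subunit of the phagocyte oxidase, was counted 20 times in the control and 52 times with TNF-α, for a log2 ratio of 1.05 (95% interval 0.35 to 1.94). Nox1 (chromosome X, 134086421 to 134221956), best known from the colon epithelium, was counted 15 times in the control and 44 times with TNF-α, which gave a log2 ratio of 1.20 (95% interval 0.42 to 2.24). Both genes rose, but the lower bounds of both intervals lie well under a fold of 2. Neither was called when counts were divided by 2 or when edgeR's exact test assumed a coefficient of variation of 0.2 between cultures. Nox4 (chromosome 7, 87246096 to 87398710), an oxidase that is active without organizer subunits and makes mainly hydrogen peroxide, had 435 counts in the control and 319 with TNF-α. Its log2 ratio of -0.70 (95% interval -0.92 to -0.50) lay below 0 but did not pass a fold of 2. At a fold of 1.5 it was called lower.

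Per length, Nox4 was the most abundant of these catalytic subunits in both libraries. It stood at 3.25 TPM in the control against 0.287 for Nox1 and 0.218 for Cybb. With TNF-α the levels were 1.93, 0.682 and 0.459 TPM. Their sum was 3.76 TPM in the control and 3.07 TPM with TNF-α, while Cyba stood at 23.2 and 70.7 TPM. The ratio of Cyba to the sum thus went from 6.18 to 23.0, mostly through the rise of Cyba itself. These ratios compare transcript amounts and not proteins.

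Part of Nox1 shares sequence positions with a neighbour. Exons of Cstf2, on the opposite strand, cover 399 bases of Nox1, or 12.1% of its exon length. Cstf2 had 6042 counts in the control and 7146 with TNF-α, a log2 ratio of -0.02. At the density of Cstf2 those 399 bases would hold 263 and 311 counts, more than the 15 and 44 counted for Nox1. Whether counting used the strand is not given in the sources used here, so the Nox1 counts are uncertain.

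The organizer and the activator of Nox1 did not pass the thresholds. Noxo1 (chromosome 17, 24696234 to 24700529) had 202 counts in the control and 347 with TNF-α, a log2 ratio of 0.52 (95% interval 0.27 to 0.78). This value cannot be assigned to Noxo1 alone. Exons of Tbl3 on the opposite strand cover 70.4% of the exon length of Noxo1, and Tbl3 itself had 949 and 1383 counts, a log2 ratio of 0.28. Noxa1 (chromosome 2, 25085667 to 25095149) had 6 and 9 counts, and its log2 ratio of 0.26 had an interval from -1.33 to 2.10, too wide at this depth to show a change of 2-fold. Related cytosolic subunits of the phagocyte oxidase were also rarely counted. Ncf1, the organizer there, had 38 and 52 counts, and Ncf4, which binds membrane lipids, had 8 and 6. Exons of Gtf2ird2 on the opposite strand cover 408 bases of Ncf1, or 11.1% of its exon length. At the density of Gtf2ird2 those bases would hold 40.4 and 49.2 counts, so the Ncf1 counts cannot be assigned to that gene alone. The GTPase Rac1, which serves many pathways besides the oxidases, had 2829 and 3133 counts (log2 ratio -0.11), with 51.4% of its exon length overlapped by Daglb. Its blood cell relative Rac2 had 5 and 4 counts.

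Because Cybb and the Ncf genes are typical of phagocytes, leukocyte markers are given beside them. In bulk samples, fewer cells of a type and less RNA per cell cannot be told apart. The 15 listed markers of macrophages and other leukocytes summed to 9.67 CPM in the control and 8.002 CPM with TNF-α, and of the 10 compared 0 were called by the exact binomial test on reads. The best counted were the myeloid markers Lyz2 (114 and 109 counts), Csf1r (92 and 81, with 17.8% of its exon length overlapped by Hmgxb3 on the other strand), Cd68 (83 and 75) and Itgam (50 and 40). Their log2 ratios lay between -0.56 and -0.32. Of the 10 markers compared, 5 had log2 ratios above 0, as Cybb did, and 5 below, with a median of -0.04. The macrophage marker Adgre1 had 0 and 2 counts, Tyrobp had 2 in each library, and the T cell marker Cd3e had 0 in both. The general leukocyte marker Ptprc had 26 and 38 counts. The part of leukocytes in the Cybb counts was not tested. The 10 endothelial markers, relevant to Nos3, summed to 14.1 CPM in the control and 12.2 CPM with TNF-α, with 0 of 9 called higher and Cldn5 called lower (16 and 2 counts), and their part in the Nos3 counts was not tested. Of the 8 fibroblast markers 1 was called higher (Dcn, 184 and 582 counts), and their sum was 517 CPM in the control and 496 CPM with TNF-α. The shares over all genes compared were 6.89% called higher and 5.53% called lower.

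**Figure D3:**
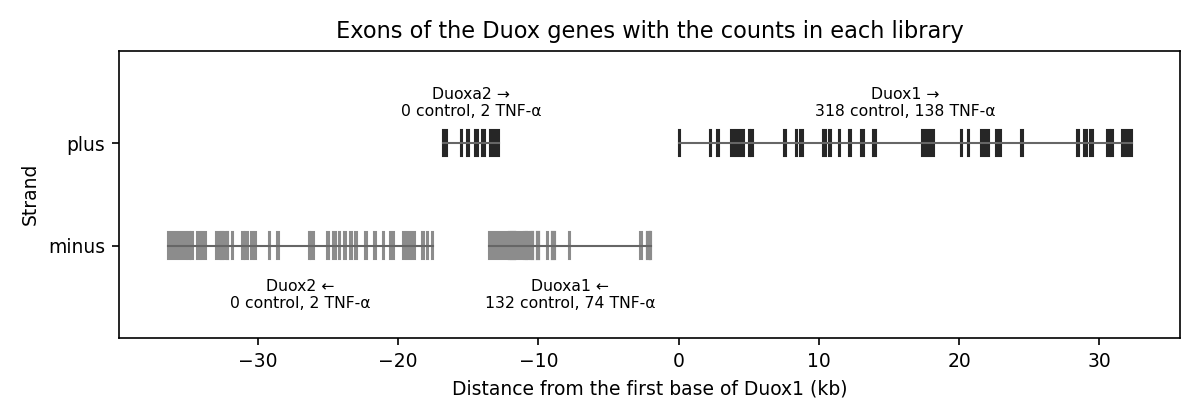
Exons of Duox2, Duoxa2, Duoxa1 and Duox1 by strand, with distance in kb from the first base of Duox1 and the counts of each library. Each oxidase gene lies head to head with a maturation factor gene. Duox1 and Duoxa1 are counted in both libraries, and Duox2 and Duoxa2 are at 0 and 2 counts.

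The dual oxidases sit in a cluster with their maturation factors on chromosome 2, from 122279247 to 122347972. Duox1 (122315672 to 122347972) had 318 counts in the control and 138 with TNF-α, or 7.14 and 2.59 CPM. Its log2 ratio was -1.45 (95% interval -1.76 to -1.17), 2.73-fold lower, at percentile 3.58 of the genes compared. The whole interval corresponds to a fall of more than 2-fold. Duoxa1, which starts 1942 bases away on the other strand and encodes the maturation factor of Duox1, also fell, from 132 counts to 74, with a log2 ratio of -1.07 (95% interval -1.53 to -0.67). The upper bound for Duoxa1 corresponds to a fall of less than 2-fold, and its call was lost at an assumed coefficient of variation of 0.2. Duox2 (122279247 to 122298165) and Duoxa2, the other head-to-head pair, each had 0 counts in the control and 2 with TNF-α. The floor of 3 counts is 0.0673 CPM in the control library, and the exact 95% Poisson interval of the 0 counts of Duox2 there reaches 0.0828 CPM. Exons of Duoxa2 and Duoxa1 overlap on opposite strands by 682 bases, which is 42.8% of the exon length of Duoxa2.

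Luminal markers are given beside Duox1 because of the direction of their values, and no measurement here places Duox1 in luminal cells. Of the 10 compared, 9 had log2 ratios below 0, with a median of -0.89. Among all genes with at least 100 summed counts, where the luminal and basal markers lie, 3.59% were called lower. By the exact binomial test on reads at a fold of 2, 3 of the 10 luminal markers were called lower and 0 higher. Those called lower were Esr1, Pgr and Prlr, with log2 ratios of -1.48, -1.54 and -1.15. The other 7 were not called, and their log2 ratios ran from -0.97 for Foxa1 to 0.29 for Epcam. Among them, the keratins Krt8, Krt18 and Krt19 had -0.10, -0.28 and -0.84. The sum of the 10 markers was 4359 CPM in the control and 3507 CPM with TNF-α. Of the 10 basal markers 2 were called lower, Oxtr and Lgr5, with log2 ratios of -1.19 and -1.20, and the sum was 12219 CPM in the control and 11271 CPM with TNF-α. In all, 6 basal markers had log2 ratios below 0 and 4 above, with a median of -0.14. The contractile markers Cnn1, Myh11, Acta2 and Mylk had log2 ratios of -0.74, -0.52, -0.20 and 0.18. The keratins Krt5, Krt14 and Krt17 had 0.16, -0.08 and 0.31. The part of a shift between cell types in the Duox1 value was not tested.

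**Figure D4:**
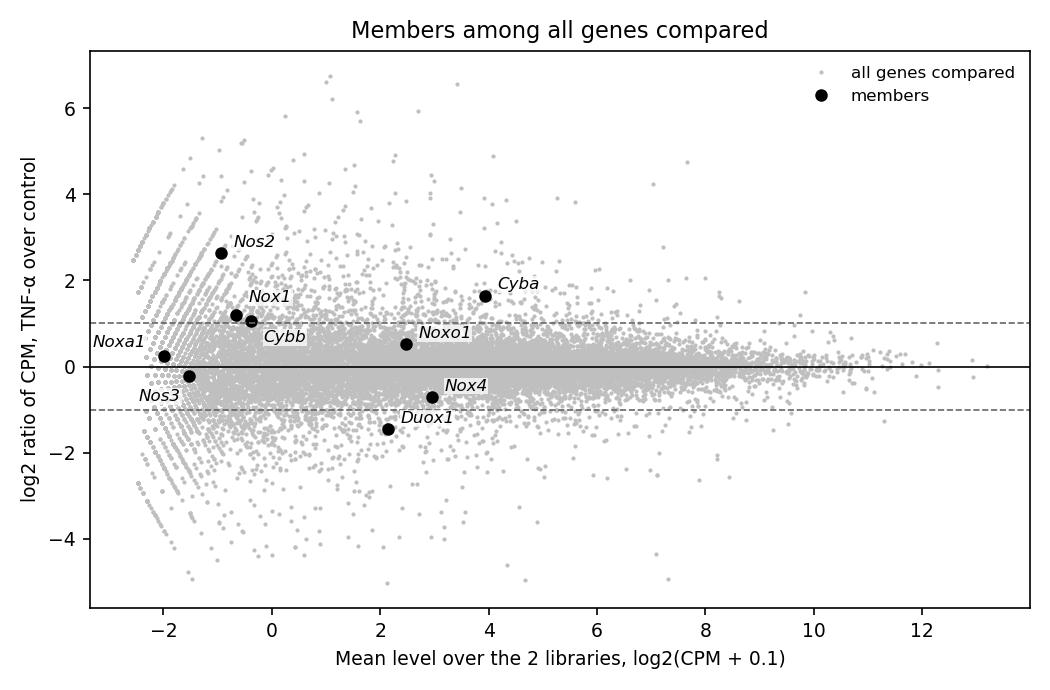
Log2 ratio of CPM, TNF-α over control, against the mean level over the 2 libraries in log2(CPM + 0.1), for the 20771 genes compared (grey) and the 9 members among them (black). Dashed lines mark a fold of 2. Nos2, Nox1 and Cybb lie at the low end of the levels, where ratios spread widely, and Cyba lies above the upper dashed line at a higher level.

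The order of the members per length changed between the libraries. In the control it was Cyba (23.2 TPM), Noxo1 (4.25), Duox1 (3.82), Nox4 (3.25), Nox1 (0.287), Noxa1 (0.235), Cybb (0.218), Nos3 (0.184), Nos2 (0.0861) and Duox2 (0). Neighbours in that order differed beyond their 95% intervals for counting error only between Cyba and Noxo1 and between Nox4 and Nox1. The intervals of both libraries were taken from the counts as deposited and not from counts divided by 2. With TNF-α, Cyba (70.7 TPM) and Noxo1 (5.90) were followed by Nox4 (1.93), Duox1 (1.34), Nox1 (0.682), Nos2 (0.650), Cybb (0.459), Noxa1 (0.285), Nos3 (0.149) and Duox2 (0.0160). There the intervals of neighbours separated at each step down to Nox1 and between Nos3 and Duox2, and the steps from Nox1 to Nos3 overlapped. The places of Noxo1, Nox1 and Nos3 in both orders are uncertain, because exons of genes on the opposite strand overlap theirs. For Noxo1 the overlap with Tbl3 is 70.4% of the exon length. Of the 10 members, 6 were under 1 TPM in both libraries.

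Genes with the most similar pair of levels were sought among 15122 genes with at least 100 summed counts, by Euclidean distance of log2 TPM over the 2 libraries. Nearest to Nos2 were Itga4 and Fndc1 (distances 0.452 and 0.462), nearest to Cyba were Gm10136 and Bnip3 (0.0146 and 0.135), and nearest to Cybb were 1110002E22Rik and Rgs17 (0.214 and 0.328). Nearest to Nox1 were Pde1c and Adamts20 (0.133 and 0.187), and nearest to Duox1 were Sept4 and Gjb6 (0.0631 and 0.0643). With 2 libraries, many genes share such a pair of levels.

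**Figure D5:**
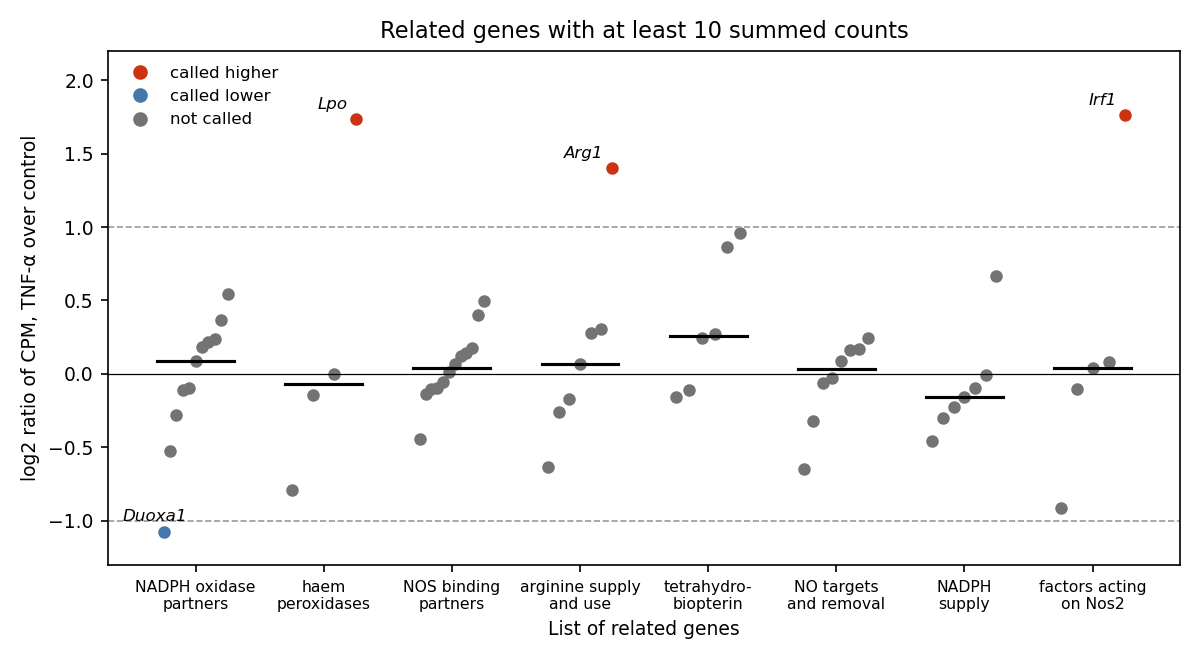
Log2 ratio of CPM, TNF-α over control, for related genes in 8 lists, each point 1 gene with at least 10 summed counts and each black line the list median. Red points were called higher and blue points lower, and dashed lines mark a fold of 2. Most related genes lie between the dashed lines, while Lpo, Arg1 and Irf1 lie above them and Duoxa1 below.

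Other genes of these pathways were taken from lists, and most of their members did not pass the thresholds. The share called in either direction over all genes compared was 12.4%. Of the 15 genes listed as NADPH oxidase relatives and partners, 14 were matched and 11 compared, with 0 called higher, Duoxa1 called lower by the exact binomial test on reads and a median log2 ratio of 0.09. The vestibular oxidase gene Nox3 had 0 counts in both libraries. Among 4 haem peroxidases compared, which use hydrogen peroxide, the lactoperoxidase gene Lpo rose from 4 counts to 21 (log2 ratio 1.73, 95% interval 0.57 to 4.14), and its call was lost when counts were divided by 2. The median log2 ratio of these 4 genes was -0.07. Of the 12 genes listed as Nos1 and binding partners of the synthases 0 were called, with a median of 0.04, and Dynll1, a light chain that binds neuronal synthase, had the largest ratio among those with at least 100 counts, at 0.49.

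For arginine, the substrate of the synthases, 1 of 7 genes was called, and the list median was 0.07. Arg1, an arginase that breaks down arginine to ornithine, rose from 4710 counts to 14910, or from 202 to 518 TPM, a log2 ratio of 1.40 (95% interval 1.35 to 1.45). Per length, Arg1 thus stood far above Nos2 in both libraries. The call of Arg1 was lost when edgeR's exact test assumed a coefficient of variation of 0.4. The other arginase gene Arg2 had 101 and 77 counts (log2 ratio -0.64), with 20.0% of its exon length overlapped by Vti1b. Ass1, which resynthesizes arginine together with Asl, had 4720 and 5925 counts and a log2 ratio of 0.07 (95% interval 0.01 to 0.12).

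Tetrahydrobiopterin is the cofactor that all nitric oxide synthases require. Of the 7 genes for its synthesis and recycling 6 were compared and 0 were called, with a median log2 ratio of 0.26. Gch1, the first and rate-limiting enzyme, had 246 counts in the control and 539 with TNF-α, a log2 ratio of 0.87 (95% interval 0.65 to 1.09). This lay above 0 but did not pass a fold of 2. Of the 5 transcription factors listed as known to act on Nos2, Irf1 rose (718 and 2923 counts, log2 ratio 1.76, 95% interval 1.65 to 1.89). Its call was lost at an assumed coefficient of variation of 0.4. The other 4 were not called, and the median of the list was 0.04. Hif1a, a factor of the response to low oxygen, had 15581 and 9920 counts and a log2 ratio of -0.91 (95% interval -0.95 to -0.87), which lay below 0 but did not pass a fold of 2. The NF-κB subunit genes Rela and Nfkb1 had log2 ratios of -0.10 and 0.08. Cebpb, with 20.7% of its exon length overlapped by Tmem189 on the other strand, had a log2 ratio of 0.04.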

How the data were processed

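RNA-seq was analysed from 1 control and 1 TNF-α library of 3D-cultured mouse mammary basal cells. The authors deposited read counts per gene, not normalized, with exon coordinates and summed exon length. The submitters' processing notes name GRCm38 and mm10, and 9 of 10 members had the span of GENCODE M21 on that build. The aligner, the counting tool and its strand setting are not given in the sources used here. The totals were 44462275 counts (control) and 53487087 (TNF-α), so 10 counts are 0.224 and 0.187 CPM. Low counts were mostly even (2172 genes with 2 and 618 with 1 in the control), so both ends of read pairs may have been counted. If so, intervals and read tests from the counts as deposited are too narrow and too lenient.

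TMM scaling of the deposited counts used edgeR (version 4.0.16, R 4.3.3). Calls and log2 ratios were computed as stated in the results with Python 3.11.15, scipy 1.17.1 and statsmodels 0.14.6, and exon overlaps with bedtools 2.31.1. With no replicates, no model across samples was fitted. Intervals cover counting error only, since each group was 1 library, and no molecular identifiers are named in the sources used here, so PCR copies may be counted as separate reads. Alternatives were other scalings (DESeq2 version 1.42.0 among them), filters, prior counts and folds, no read test, assumed spreads and halved counts. The calls were tested on simulated data. Members, lists and tests were chosen with earlier results of these data known. Named genes are all members, fixed partners (Nox3, Ncf1, Ncf4, Rac1, Rac2, Duoxa1, Duoxa2, Nos1, Gch1, Ass1, Arg1, Arg2), called genes of each list or else its largest ratio with at least 100 counts, and the 2 genes nearest to each called member. Marker genes, Asl, Rela, Nfkb1, Hif1a, Cebpb and overlapping genes were named outside this rule, after their values were seen, and 2 genes of the lists are not reported here.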

Additional observations from a re-analysis of the deposited data

How the results depend on the processing

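No paired analysis was possible because there was 1 library in each group, and no replicate could be left out for the same reason. Under scaling by upper quartile, total counts or DESeq2 size factors, with at least 1 CPM or no filter, with prior counts of 0.5 and 5 and with halved counts, the log2 ratios of the 9 members compared and of Duoxa1 kept their sign and stayed inside their intervals for counting error, wherever the gene passed the filter. Nos2, the member that moved most, lay between 2.28 and 2.87. Nos2, Cyba and Duox1 kept their call under 11 of 12 alternatives, Nox1 under 8 and Cybb under 7, and the number of members at the floor in both libraries stayed at 1.

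Over all genes, 1431 were called higher and 1148 lower. With at least 1 CPM in a library, 836 and 658 were called, with fewer genes tested, and 2 members were higher because Nox1 and Cybb were not tested there. A fold of 1.5 gave 2337 and 1987, because the threshold is lower, and 2 members were lower, Nox4 besides Duox1. When edgeR's exact test assumed a coefficient of variation of 0.2, it called 745 genes higher and 523 lower, with 2 members higher, Nos2 and Cyba. At 0.4 it gave 91 and 54, with 0 members higher and 0 lower, so all 5 calls of members rest on a spread between cultures smaller than that, which was not measured. Halved counts gave 1027 genes higher and 807 lower, with fewer reads behind each test. Among the members they left 2 higher, Nos2 and Cyba, and 1 lower, Duox1. A prior count of 5 ended the call of Cybb alone among the members.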

Other observations

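Downstream of nitric oxide and on the supply side of NADPH, 0 of the listed genes were called by the exact binomial test on reads at a fold of 2. The 8 genes for targets and removal of nitric oxide had a median log2 ratio (TNF-α over control) of 0.03. The subunits of soluble guanylate cyclase, the receptor of nitric oxide, are listed under the older names Gucy1a3 and Gucy1b3, and had 160 and 611 counts in the control and 204 and 823 with TNF-α. Pde5a, which breaks down cyclic GMP, had the largest ratio among those with at least 100 counts, at -0.32 (579 and 556 counts, 95% interval -0.49 to -0.15). Of the 7 genes that supply NADPH, which both enzyme families consume, 6 lay below a log2 ratio of 0, with a median of -0.15. G6pdx, the entry enzyme of the pentose phosphate pathway, had a log2 ratio of -0.15 (95% interval -0.21 to -0.10). Idh1, the cytosolic isocitrate dehydrogenase, stood apart from the list at 0.67 (3673 and 6985 counts, 95% interval 0.61 to 0.73).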
